A study of Arabidopsis thaliana with 14 samples.

Results

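The genes of plastid fatty acid synthesis and of its carbon supply were followed through embryo development in Arabidopsis thaliana. A list of 37 loci was drawn up by enzyme function, from the import and breakdown of sugar phosphates in the plastid to the release and export of finished fatty acids, by a rule that uses no measured value, although earlier results of these data were known when it was chosen. Of these loci 36 were in the table of 25414 named genes, and SSI2 (AT2G43710), the stearoyl-ACP desaturase best known from mutants, was not analysed here. The 36 genes comprised 5 of carbon supply, 7 of the plastid pyruvate dehydrogenase, 4 of acetyl-CoA carboxylase, 5 acyl carrier proteins, 4 of malonyl transfer and condensation, 4 reductases and dehydratases, 2 stearoyl-ACP desaturases, 3 acyl-ACP thioesterases and 2 of export. Every one of the 36 passed the filter on low values.

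In plants, fatty acids are made in the plastid and not in the cytosol. Pyruvate is oxidised to acetyl-CoA by the plastid pyruvate dehydrogenase, acetyl-CoA is carboxylated to malonyl-CoA, and the malonyl group is moved to acyl carrier protein, on which the chain grows by repeated condensation, reduction, dehydration and reduction. A desaturase introduces the first double bond, thioesterases free the chain, and the free fatty acid leaves the plastid and is joined to coenzyme A for assembly into membrane lipids or storage oil. The Arabidopsis embryo stores oil in its cotyledons during seed filling, and WRI1 is the transcription factor known to activate many of these genes in seeds.

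The samples were whole embryos of the wild-type ecotype Col-0, with no other genotype or treatment. They covered 7 stages, from the zygote, which is the fertilised egg cell, over octant, globular, heart and torpedo embryos to bent and mature embryos, with 2 biological replicate libraries per stage and 14 in all. Messenger RNA was amplified as antisense RNA before library preparation, and the sources used here do not give how many embryos went into a library. Values are reads per gene scaled by the authors so that each library's entries sum to 20000000, and they are given in that unit. RNA was taken from whole embryos, so fewer cells of a type and less RNA per cell cannot be told apart.

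The libraries held 6078186 to 30803336 reads, so that 1 read was worth between 0.649 and 3.29 units. Entries without a gene identifier took 9.15% to 26.3% of the reads. Markers for the embryo itself (9 of 9 listed were in the table) summed to between 14227 and 38308 up to heart, to 9115 and 9872 in torpedo, 6609 and 10598 in bent and 865 and 2517 in mature embryos, with WOX8 at 0 in both bent and both mature libraries. LEC1 alone gave 30064 and 21555 of this sum at zygote, and it gave 1712 and 891 at torpedo. Not all of these markers fell with the sum. FUS3 and ABI3 had means of 185 and 157 at zygote and were highest at bent, at 2826 and 4956, and BBM was highest at torpedo. Endosperm markers (11 of 13 in the table) summed to between 153 and 497 up to torpedo and to between 16.6 and 29.3 from bent on. Seed coat markers (5 of 11 in the table) summed to 2838 and 4382 at zygote and 15157 and 16127 at octant, of which BAN, a seed coat gene of tannin synthesis, gave 12878 and 13519.5 at octant, and to at most 613 from globular on. The part of seed coat RNA in the zygote and octant values below was not tested. The library kit does not mark strand, and 13 of the 36 genes overlap another annotated gene on the opposite strand, so the values of BCCP2, CAC2, CAC3, AT1G24360, AT5G10160, AT2G22230, ACP1, ACP5, PDH-E1 BETA, EMB3003, LPD1, PKp3 and ENO1 may hold reads of the neighbour. BCCP2 shared 12.8% and ACP5 16.6% of the 50-base words of their transcripts with that neighbour.

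Promoters were searched for the AW-box, the motif that WRI1 is known to bind, since 30 of the 36 genes shared their stage of highest level. The motif was spelled as CNTNG, then any 7 bases, then CG, and was looked for on both strands from 250 bases before to 50 bases after the RefSeq gene start in build TAIR10.1. It was found in 9 of 37 promoters of the listed loci (24.3%) and in 3261 of 27443 promoters of protein-coding genes (11.9%). The 6 matches that read in the direction of the gene are printed from RefSeq TAIR10.1, with up to 8 bases on each side and the match in capitals, to show which of its free positions the genes share.
PDH-E1 ALPHA, chr1:49365-49394, minus strand: gaaaaaaaCATTGGTGTTAACGaagaaggg
AT4G16155, chr4:9157219-9157248, minus strand: catctccgCTTTGATATCTCCGcctccgct
CAC3, chr2:15917026-15917055, plus strand: aggagtcaCGTGGGCACGTGCGagagagca
ACP1, chr3:1392928-1392957, minus strand: ttcacgctCTTTGTACACTCCGccctctct
ACP5, chr5:9571139-9571168, plus strand: ttcacgctCCTTGAACAATCCGccatctct
AT2G22230, chr2:9449955-9449979, plus strand: acacaaacCTTTGTACTCTCCGctc
The matches begin 82, 107 and 38 bases before the gene start in PDH-E1 ALPHA, AT4G16155 and ACP5, and at bases 3, 6 and 34 of the gene in CAC3, ACP1 and AT2G22230. ENO1, PDH-E1 BETA and LACS9 held the other 3 matches, on the opposite strand. A match describes the letters of the sequence and does not show that the site is bound.

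Summed over the 36 genes, the values rose through development to the torpedo stage and were lowest in the mature embryo. The sums were 42877 and 46041 in zygotes, 67007 and 74473 in octant and 70261 and 73124 in globular embryos. They were 181305 and 192468 in heart, 542005 and 576117 in torpedo, 389791 and 247106 in bent and 2749 and 11094 in mature embryos. In both torpedo libraries the genes took 3.04% and 3.23% of all reads in named genes, against 0.277% and 0.287% at zygote and 0.0151% and 0.0621% at the mature stage. By step, the acyl carrier proteins gave 18697 and 18988 of this in zygotes, against 5007 and 6060 in octant embryos. The pyruvate dehydrogenase genes reached 155027 and 136383 in torpedo embryos, and those of malonyl transfer and condensation 97829 and 110380 after 1206 and 1191 in zygotes. The 2 libraries of a stage did not overlap those of any other stage except at octant and globular.

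The torpedo embryo was the stage of highest mean for 30 of the 36 genes (83.3%), as it was for 26.6% of the 18744 genes tested. Among these 30, the torpedo and bent libraries of BCCP2, ACP1, ACP2, ACP3, ACP5, AT3G02630 and FaTA overlapped. The torpedo libraries of ACP3 overlapped those of heart as well. GPT1, FATB and AT5G16240 were highest at bent, PKp3 and AT3G57280 at octant and AT1G24360 at heart, and none of the 36 was highest at zygote, globular or mature. Expressed as a share of its own torpedo mean, the median gene stood at 3.84% at zygote, 11.3% at octant, 10.8% at globular, 29.7% at heart, 55.1% at bent and 0.938% when mature. Every one of the 36 genes differed among stages by the F test of limma, and so did 97.1% of all genes tested, so that this count sets the genes apart from no others.

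**Figure D1:**
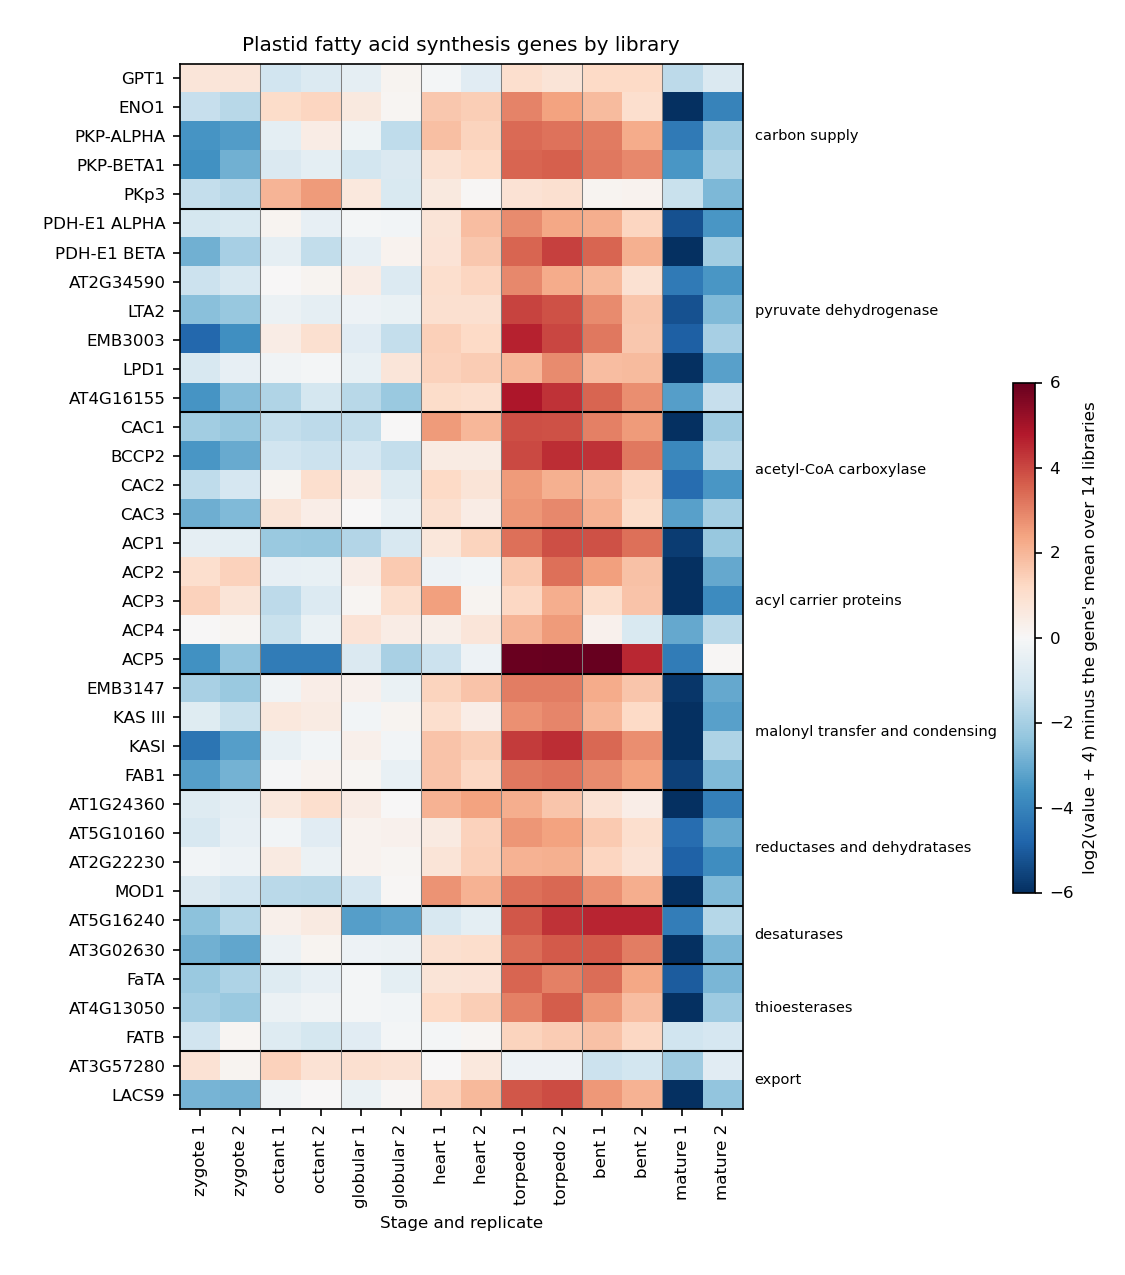
Levels of the 36 genes in 14 libraries, as log2(value + 4) minus the mean of the gene over all libraries (colour, from -6 in blue to 6 in red), with genes in rows ordered by enzyme step and libraries in columns ordered by stage. Torpedo and bent columns are red in most rows, GPT1, FATB and AT3G57280 vary least in colour, and mature replicate 1 is a darker blue than mature replicate 2 in most rows.

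**Figure D2:**
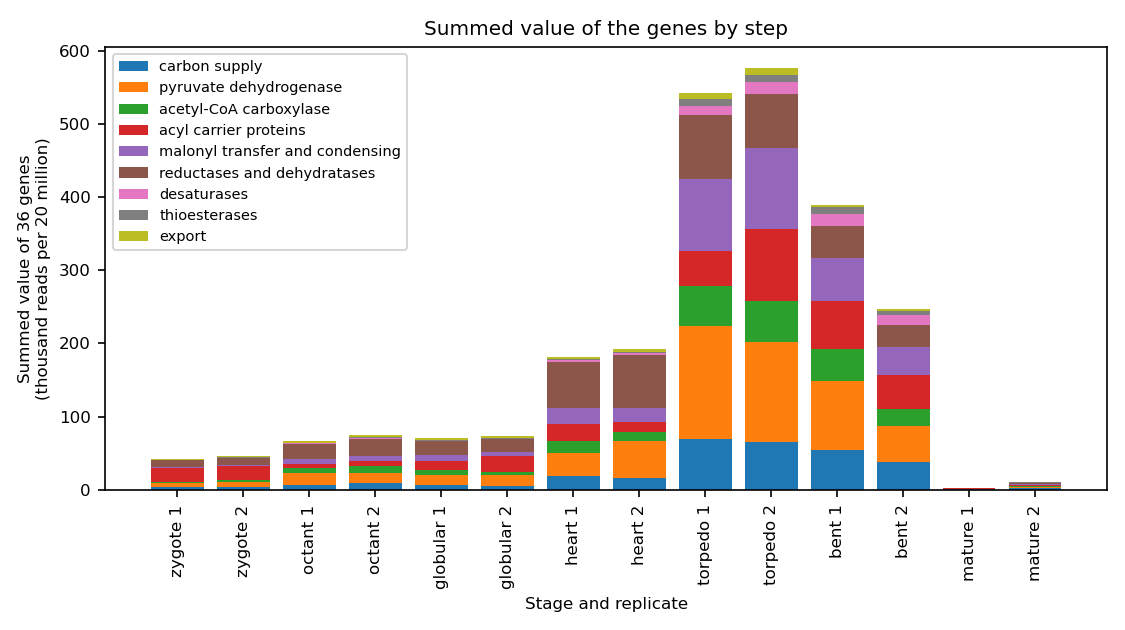
Summed value of the 36 genes in each library (bar height, in kiloreads per 20000000), split by enzyme step (colours). The sum is highest in the torpedo libraries, at 542005 and 576117, and acyl carrier proteins are the widest band in both zygote bars.

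From zygote to octant 22 of the 36 genes changed, 20 upwards and 2 downwards, where 57.8% of all genes tested changed, 44.7% upwards and 13.1% downwards (limma on log2(value + 4), p-values adjusted after Benjamini and Hochberg over all genes tested, threshold 0.05). The median change of the 36 genes was 1.53 in log2 and that of all genes tested was 0.92. The rises took in 4 of 4 genes of malonyl transfer and condensation, 4 of 5 of carbon supply, 3 of 4 of acetyl-CoA carboxylase and both desaturases, while of the 5 acyl carrier proteins none rose and ACP3 fell. In ACP1, ACP2 and ACP4 both octant libraries also lay below both zygote libraries, without a call. Relative to a library's typical gene the picture was less one-sided, with 11 rises and 5 falls after upper-quartile scaling, 8 and 6 after median-centring, 10 and 6 with edgeR and 9 and 6 with DESeq2. The median change of all genes tested was then 0.32, -0.22, 0.13 and -0.05, in that order. The shares of all genes that rose or fell in these settings are not given here, so these splits are not set against them. The 22 calls fell to 11 without zygote replicate 1, to 14 without octant replicate 1 and to 13 without octant replicate 2.

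From octant to globular 2 genes rose and 2 fell, against 7.02% and 31.5% of all genes tested. The median change was -0.01 for the 36 genes and -0.63 for all genes. Where scaling followed the typical gene, the split became 6 rises and 2 falls after upper-quartile scaling, after median-centring and with DESeq2, and 4 and 2 with edgeR. The median of all genes tested was then -0.11, 0.16, -0.10 and -0.17, in that order, and their shares in these settings are not given. Without octant replicate 1, globular replicate 1 or globular replicate 2 there were 2 calls in all, and without mature replicate 1 or mature replicate 2 there were 8.

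From globular to heart 11 genes rose and none fell, where 27.7% of all genes tested rose and 6.9% fell. The median change was 1.35 for the 36 genes and 0.59 for all genes tested. These 11 were PKP-ALPHA, PKP-BETA1, AT2G34590, EMB3003, AT4G16155, CAC1, BCCP2, ACP1, AT1G24360, MOD1 and AT5G16240, and they came from 6 of the 9 steps. The counts of rises and falls were 4 and 0 with upper-quartile scaling and with edgeR, 4 and 1 after median-centring and 6 and 2 with DESeq2. The median of all genes tested was then 0.08, 0.05, -0.24 and 0, in that order, and their shares in these settings are not given. Calls numbered 5 without globular replicate 2, 5 without heart replicate 1, 4 without heart replicate 2, and 23 without either mature library.

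From heart to torpedo 18 genes rose and none fell, where 16.3% of all genes tested rose and 9.17% fell. The median change of the 36 genes was 1.75 in log2, against 0.19 for all genes tested. Members of 8 steps were among the 18, with both desaturases, 4 of 7 pyruvate dehydrogenase genes, 3 of 5 acyl carrier proteins and 3 of 5 carbon supply genes. Between 13 and 19 rises and no fall were found under the other scalings and count models, where the median of all genes tested ranged from -0.26 to 0.13. The count was 10 without heart replicate 1, 9 without heart replicate 2, 7 without torpedo replicate 1, 9 without torpedo replicate 2 and 29 without either mature library.

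From torpedo to bent 2 genes fell, ACP4 and LTA2, and none rose, where 22% of all genes tested fell and 5.46% rose. The median change was -0.90 for the 36 genes and -0.54 for all genes tested. The ACP4 call held without every single library in turn, whereas that of LTA2 (adjusted p = 0.0497) rested on the setting, with adjusted p-values of 0.00389 to 0.371 over the alternatives and 0.371 without bent replicate 2. Leaving out any single library of the zygote, octant, globular, heart or torpedo stage, or bent replicate 2, left 1 call, against 5 without bent replicate 1 and 14 without either mature library.

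From bent to mature 35 of the 36 genes fell and none rose, where 58.4% of all genes tested changed, 40.1% downwards and 18.2% upwards. The median change was -6.26 for the 36 genes and -0.57 for all genes tested, and the gene without a call was AT3G57280. Leaving out single libraries gave 34 or 35 falls. After median-centring 33 fell and 1 rose, and the median of all genes tested was then 0.81. Over the whole course from zygote to mature 21 genes fell and none rose, where 65.2% of all genes tested changed, 35.6% downwards and 29.6% upwards, with medians of -1.95 and -0.16. For that span 18 fell and 1 rose both after median-centring and with edgeR, with medians of all genes of 0.25 and -0.07.

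**Figure D3:**
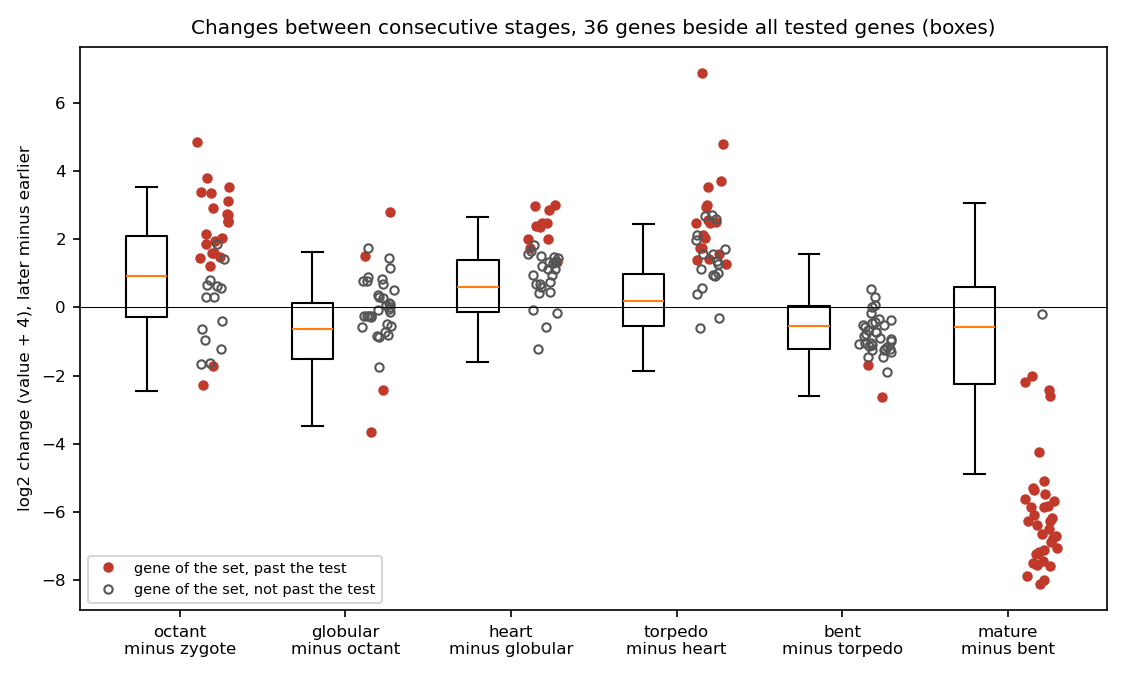
Changes between consecutive stages as log2(value + 4), later minus earlier stage, for the 36 genes (points, filled where past the test) beside all 18744 genes tested (boxes from the lower to the upper quartile with the median as a line, and whiskers from the 5th to the 95th percentile). The median of the points is above 0 from zygote to octant, globular to heart and heart to torpedo (1.53, 1.35 and 1.75), at -0.01 from octant to globular and below 0 afterwards, with 35 filled points below the median of all genes from bent to mature.

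The mature libraries stood apart from each other in these genes, and they enter the estimate of spread behind all the counts above. Of the 36 genes 35 were higher in mature replicate 2 than in mature replicate 1, by a median of 2.36 in log2 or 5.14-fold, while over all genes tested 54.8% were higher and the median difference was 0.10. At the other 6 stages the median absolute difference between replicates was 0.31 to 0.63 in log2 for the 36 genes. The bent libraries also differed in 1 direction, with 5 of the 36 genes higher in bent replicate 2 and a median difference of -0.60. Over all genes tested 28.7% were higher there, with a median of -0.30. Entries without an identifier, which the scaling includes, took 14.6% of the reads in bent replicate 1 and 26.3% in bent replicate 2. Their part in the difference between the bent libraries was not tested. The median pooled standard deviation of the 36 genes was 0.76 in log2 over 14 libraries and 0.39 over the 12 libraries without the mature stage, against 0.47 and 0.46 for all genes tested. A fit of the 6 stages up to bent was chosen after the data were seen and tested 18519 genes. In it 26 of the 36 genes changed from zygote to octant, 22 upwards and 4 downwards, against 59.1% of all genes tested (45.6% and 13.5%). The 4 falls were those of GPT1, ACP1, ACP2 and ACP3. From octant to globular 8 changed, 5 upwards and 3 downwards, against 39.6% (7.54% and 32%). From globular to heart 23 rose and none fell, against 28.9% and 7.12% of all genes. From heart to torpedo 29 rose and none fell, against 17.2% and 9.69%. From torpedo to bent 14 fell and none rose, against 23.8% and 5.59%. From globular to bent 30 changed, 29 of them upwards, against 53.6% of all genes tested (31.2% upwards). The cause of the difference between the mature libraries was not tested.

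**Figure D4:**
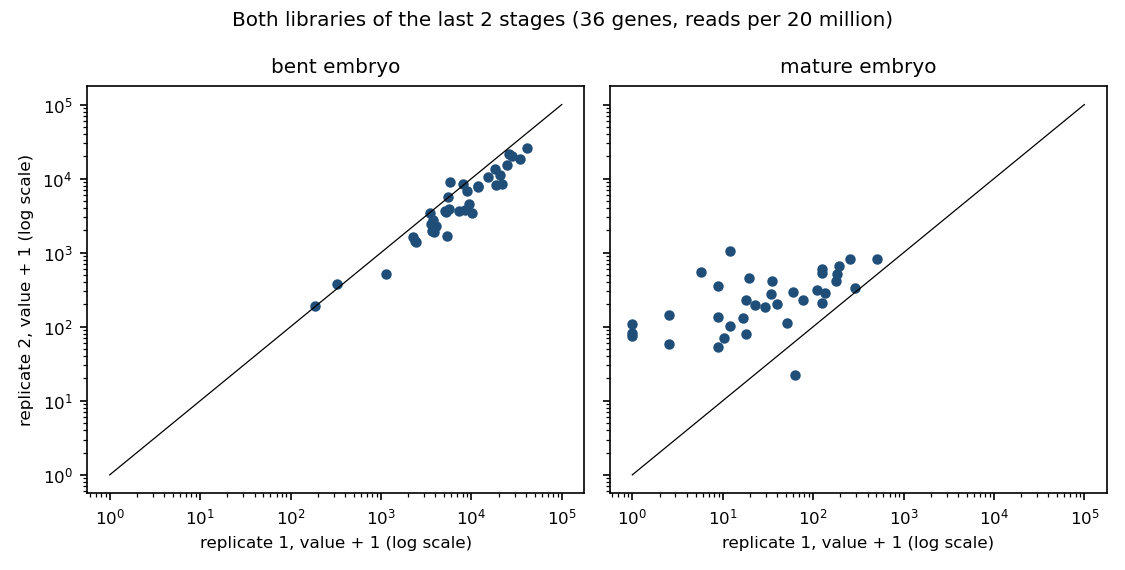
Values of the 36 genes in replicate 2 against replicate 1 for the bent stage (left) and the mature stage (right), as value + 1 on log axes, with the line of equality. Bent points lie mostly just below the line, and in the mature panel 35 of 36 points lie above it.

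The direction from zygote to mature likewise depended on the mature library in some genes. Leaving out mature replicate 1 leaves 1 mature library, so only sizes are given for that fit. The log2 change was then 1.44 for PKP-BETA1, 2.18 for EMB3003, 1.66 for AT4G16155, 1.61 for BCCP2, 3.07 for ACP5 and 2.01 for KASI. For KASI, mature replicate 1 (11.0) lay below both zygote libraries (181 and 379) and mature replicate 2 (1067) above both. The falls of ACP2 (log2 change -7.22, SE 1.21, adjusted p = 9.38e-05), ACP3 (log2 change -5.98, SE 0.73, adjusted p = 4.53e-06) and AT1G24360 (log2 change -4.55, SE 0.56, adjusted p = 4.53e-06) were called under every alternative run.

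Carbon enters the pathway through the plastid envelope and the last steps of glycolysis. GPT1, which imports glucose 6-phosphate into the plastid, gave 2526 and 2459.5 in zygote, 672 and 847 in octant and 1020.0 and 1662 in globular embryos. It then gave 1395 and 951 in heart, 3024 and 2544 in torpedo, 3501 and 3422 in bent and 502 and 811 in mature embryos. Both bent libraries lay above all others and both octant libraries below the zygote ones, with a fall from zygote to octant (log2 change -1.72, SE 0.37, adjusted p = 0.00106) that held under every alternative. ENO1, the plastid enolase that makes phosphoenolpyruvate, gave 342 ± 45.7 at zygote (mean ± SD, n = 2), 2278 ± 218 at octant and 6445 ± 1786 at torpedo.

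Plastid pyruvate kinase, which turns phosphoenolpyruvate into pyruvate, is built from alpha and beta subunits. PKP-BETA1, the carbon supply gene with the highest level per kilobase of transcript, gave 231 and 392.2 in zygote, 1579 and 1968 in octant and 1372 and 1614 in globular embryos. It then gave 5545 and 6637 in heart, 32959.6 and 35159 in torpedo, 26168 and 21728 in bent and 257 and 822 in mature embryos. It rose from zygote to octant (log2 change 2.53, SE 0.46, adjusted p = 3.25e-04), from globular to heart (log2 change 2.02, SE 0.46, adjusted p = 0.00412) and from heart to torpedo (log2 change 2.49, SE 0.46, adjusted p = 0.00141), and these 3 calls held under every alternative. PKP-ALPHA, the partner subunit, rose over the same 3 steps, from 204 and 233 at zygote to 25491 and 22744 at torpedo. Its call at octant held under every alternative, whereas that at heart (log2 change 2.48, SE 0.60, adjusted p = 0.00581) was lost without globular replicate 2 or heart replicate 1 (adjusted p = 0.0643 and 0.0526, in that order, and 0.00109 to 0.0761 over the alternatives). Its call at torpedo (log2 change 1.74, SE 0.60, adjusted p = 0.045) was lost in 14 of the 27 alternatives, among them each library of the zygote, octant, heart and torpedo stages left out (adjusted p from 0.0512 without octant replicate 2 to 0.204 without heart replicate 2, with 0.0123 to 0.204 over the alternatives).

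The remaining pyruvate kinase gene was highest at octant. PKp3 gave 58.2 and 51.6 in zygote, 679 and 989 in octant and 253 and 86.5 in globular embryos. It then gave 245 and 171 in heart, 298 and 319 in torpedo, 183 and 187 in bent and 62.6 and 21.5 in mature embryos. Both octant libraries lay above all others, after a rise (log2 change 3.81, SE 0.53, adjusted p = 4.00e-05) and before a fall to globular (log2 change -2.43, SE 0.53, adjusted p = 0.00224), of which the fall was lost in a fit of those stages alone (adjusted p = 0.0734, with 7.89e-04 to 0.0734 over the alternatives). Per kilobase of transcript, PKp3 made up 17.9% and 16.3% of the 3 pyruvate kinase genes in the octant libraries and 0.522% and 0.563% in the torpedo libraries. Antisense RNA is copied from the poly(A) tail, so levels per kilobase compare genes only roughly.

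The plastid pyruvate dehydrogenase has an E1 part that decarboxylates pyruvate, an E2 part that passes the acetyl group to coenzyme A, and an E3 part that reoxidises its lipoamide. PDH-E1 ALPHA, of the first part, gave 3614 and 3947 in zygote, 8271 and 5369 in octant and 6877 and 6543 in globular embryos. It then gave 12537 and 27181 in heart, 53944 and 37497 in torpedo, 34262 and 18280.5 in bent and 192 and 669 in mature embryos. Its torpedo values were the highest, yet no single step up to torpedo passed the test, the closest being globular to heart (log2 change 1.46, SE 0.55, adjusted p = 0.0528), with adjusted p = 0.0218 when the mature libraries were not used. PDH-E1 ALPHA did rise over the longer span from globular to bent (log2 change 1.90, SE 0.55, adjusted p = 0.00966), where 25 of the 36 genes rose and 1 fell (52.2% of all genes tested changed, 30.5% upwards and 21.8% downwards). The call was lost without bent replicate 1 (adjusted p = 0.0921, and 0.0022 to 0.0921 over the alternatives).

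EMB3003, an E2 gene named for its embryo-defective mutant, gave 38.8 and 84.0 in zygote, 1496 and 2142 in octant and 688 and 406 in globular embryos. It then gave 3035 and 2516 in heart, 27164 and 17973 in torpedo, 10054 and 3470.2 in bent and 32.9 and 275 in mature embryos. Its rise from zygote to octant (log2 change 4.87, SE 0.73, adjusted p = 7.29e-05) exceeded in size every other called rise among the 36 genes at that step, and it held under every alternative. The other E2 gene, LTA2, was the larger of the pair at zygote, with 82.3% and 71.6% of the E2 level per kilobase, and the smaller at octant, with 35.4% and 25.2%. LTA2 rose from heart to torpedo (log2 change 2.96, SE 0.60, adjusted p = 0.00262), from 2340.1 and 2324 to 19755 and 16642.

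The E3 and E1 beta genes also changed in proportion. LPD1 made up 98.3% and 97.3% of the E3 level per kilobase at zygote and 51.4% and 72.7% at torpedo, the rest being AT4G16155. AT4G16155, annotated as a chloroplast dihydrolipoamide dehydrogenase, gave 14.5 and 32.4 in zygote, 56.5 and 96.8 in octant and 62.5 and 42.0 in globular embryos. It then gave 448 and 423 in heart, 6061 and 4329 in torpedo, 2356 and 1453 in bent and 17.2 and 78.3 in mature embryos. No globular library reached a heart library, and no heart library a torpedo library, and both the rise to heart (log2 change 2.99, SE 0.57, adjusted p = 0.00133) and the rise to torpedo (log2 change 3.54, SE 0.57, adjusted p = 4.87e-04) held under every alternative. Of the E1 beta genes, AT2G34590 gave 78.9% and 71.6% of their level per kilobase at zygote and 44.3% and 25.4% at torpedo, and PDH-E1 BETA the rest. PDH-E1 BETA read 369 ± 156 at zygote and 27418 ± 7818 at torpedo, and LPD1 1366 ± 315 and 12271 ± 4950.2.

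Acetyl-CoA carboxylase makes malonyl-CoA, and its plastid form joins biotin carboxylase (CAC2), a biotin carrier (CAC1 or BCCP2) and carboxyltransferase subunits, of which CAC3 is the alpha subunit. BCCP2 gave 78.5 and 112 in zygote, 420.2 and 378 in octant and 451 and 337 in globular embryos. It then gave 1310.5 and 1298 in heart, 14678 and 19987 in torpedo, 18896 and 8195 in bent and 59.5 and 294 in mature embryos. Each torpedo and bent library lay above every heart library, and the rise from heart to torpedo (log2 change 3.71, SE 0.57, adjusted p = 3.61e-04) held under every alternative. CAC1, the other carrier, gave 146 and 127 in zygote, 229.8 and 207 in octant and 224 and 636 in globular embryos. It then gave 3699 and 2504 in heart, 9131 and 8783 in torpedo, 5102 and 3666 in bent and 1.56 and 142 in mature embryos. Its largest rise between consecutive stages came a stage earlier, from globular to heart (log2 change 2.996, SE 0.97, adjusted p = 0.0266), a call that was lost in 10 of the 27 alternatives, among them those without globular replicate 1, heart replicate 1 or heart replicate 2 (adjusted p = 0.176, 0.137 and 0.0727, in that order, and 1.69e-04 to 0.18 over the alternatives).

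Within the pair of carriers, CAC1 held 75.02% and 67.2% of the level per kilobase in the heart libraries and BCCP2 held 60.2% and 68.1% in the torpedo libraries. No test was made of these shares. CAC2 rose from zygote to octant (log2 change 1.85, SE 0.49, adjusted p = 0.00473), a call lost without zygote replicate 1 or octant replicate 2 (adjusted p = 0.0537 and 0.0679, in that order, and 9.22e-04 to 0.232 over the alternatives). CAC3 rose from zygote to octant (log2 change 3.36, SE 0.44, adjusted p = 2.65e-05) and from heart to torpedo (log2 change 2.04, SE 0.44, adjusted p = 0.00398), both under every alternative. At torpedo CAC2 read 16878 ± 3465 and CAC3 11699.5 ± 1225.

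Acyl carrier proteins hold the growing chain on a phosphopantetheine arm, and the 5 plastid genes followed different courses. ACP2 gave 8981 and 11808 in zygote, 3254 and 3351 in octant and 6008 and 13391 in globular embryos. It then gave 3654 and 4097 in heart, 13598 and 45366 in torpedo, 24715 and 15092 in bent and 4.69 and 542 in mature embryos. Its zygote libraries were above its octant and heart libraries, its torpedo libraries differed from each other more than 3-fold, and none of its steps up to bent passed the test over all 14 libraries. In the fit without the mature stage ACP2 fell from zygote to octant (log2 change -1.64, adjusted p = 0.0148). That fit also gave rises from octant to globular (log2 change 1.44, adjusted p = 0.0411) and from heart to torpedo (log2 change 2.68, adjusted p = 0.0020). ACP3, which lies near ACP2 on chromosome 1, gave 7346 and 4825 in zygote, 948 and 1576 in octant and 3047 and 5645 in globular embryos. It then gave 15398 and 3146 in heart, 6556 and 12581 in torpedo, 5766 and 9089.7 in bent and 39.1 and 203 in mature embryos. It fell from zygote to octant (log2 change -2.28, SE 0.73, adjusted p = 0.0155), a call lost without zygote replicate 1 or octant replicate 1 (adjusted p = 0.105 and 0.108, in that order, and 6.10e-06 to 0.108 over the alternatives). Its heart libraries lay far apart.

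ACP1 gave 1379 and 1308 in zygote, 429 and 408 in octant and 592 and 1016 in globular embryos. It then gave 3193 and 5068 in heart, 19551 and 28959 in torpedo, 28416 and 19909.6 in bent and 34.4 and 413 in mature embryos. It was lower at octant than at zygote and highest at torpedo and bent, with called rises from globular to heart (log2 change 2.37, SE 0.74, adjusted p = 0.0224) and from heart to torpedo (log2 change 2.56, SE 0.74, adjusted p = 0.0195). The call at heart was lost without globular replicate 1, heart replicate 1 or heart replicate 2 (adjusted p = 0.127, 0.0569 and 0.131, in that order, and 3.49e-04 to 0.131 over the alternatives). The call at torpedo was lost without heart replicate 1, heart replicate 2, torpedo replicate 1 or torpedo replicate 2 (adjusted p = 0.129, 0.0536, 0.0594 and 0.121, in that order, and 2.28e-04 to 0.129 over the alternatives). From globular to bent ACP1 rose (log2 change 4.93, SE 0.74, adjusted p = 6.10e-05) under every alternative.

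ACP5 gave 1.94 and 10.3 in zygote, 0 and 0 in octant and 36.2 and 15.3 in globular embryos. It then gave 25.7 and 55.0 in heart, 4467 and 5549 in torpedo, 5431 and 1704 in bent and 0 and 73.4 in mature embryos. It had no read in either octant library, where 3 reads would be worth 2.32 and 6.76, and its torpedo mean was at least 2899-fold above the value of 3 reads over both octant libraries (counting error only). The rise from heart to torpedo (log2 change 6.90, SE 0.99, adjusted p = 2.27e-04) was the largest called rise of the 36 genes at that step and held under every alternative. The earlier rise to globular (adjusted p = 0.0374, at least 14.9-fold against the same floor) rested on 11 and 12 reads, and its adjusted p ranged from 0.00251 to 0.171, with the call lost without either octant library (adjusted p = 0.122 and 0.137) or either globular library (0.171 and 0.0593).

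ACP4, known as the major acyl carrier protein gene of leaves, gave 989 and 1037 in zygote, 377 and 725 in octant and 1685 and 1309.5 in globular embryos. It then gave 1244 and 1584 in heart, 3995 and 5661 in torpedo, 1138 and 510.4 in bent and 109.5 and 315 in mature embryos. It peaked at torpedo after a rise from heart (log2 change 1.76, SE 0.50, adjusted p = 0.0189), and it fell to bent (log2 change -2.63, SE 0.50, adjusted p = 0.00158), which was lost only in a fit of torpedo and bent alone (adjusted p = 0.0934, with 3.88e-04 to 0.0934 over the alternatives). The bent and torpedo libraries of ACP1, and those of ACP5, overlapped. The rise of ACP4 to torpedo was lost without heart replicate 1, heart replicate 2, torpedo replicate 1 or torpedo replicate 2 (adjusted p = 0.115, 0.0577, 0.0518 and 0.131, in that order, and 0.00549 to 0.131 over the alternatives). ACP4 also rose from octant to globular (log2 change 1.499, SE 0.50, adjusted p = 0.0285), a call lost without octant replicate 1, globular replicate 1 or globular replicate 2 (adjusted p = 0.223, 0.118 and 0.0603, in that order, and 1.49e-04 to 0.223 over the alternatives). As shares of the 5 genes per kilobase, ACP2 held 47.1% and 61.0% at zygote and 30.9% and 27.3% at bent, and ACP1 10.2% and 9.49% at zygote and 49.96% and 50.7% at bent.

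**Figure D5:**
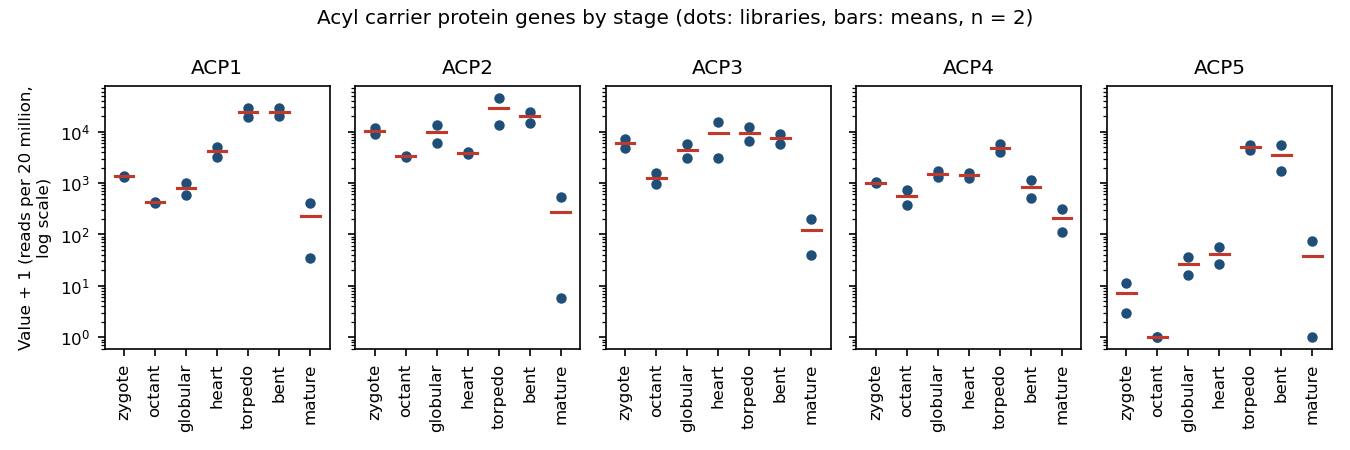
Values of the 5 plastid acyl carrier protein genes by stage, as value + 1 on a log axis in reads per 20000000 (dots are libraries, bars are means of n = 2). ACP2 and ACP3 are already high at zygote, while ACP5 is at 0 in both octant libraries and above 1700 in all torpedo and bent libraries.

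The malonyl transferase EMB3147 hands malonyl groups to acyl carrier protein, KAS III makes the first condensation, KASI extends the chain and FAB1 (KAS2) makes its last elongation. KASI gave 181 and 379 in zygote, 2826 and 3351 in octant and 4672 and 3418 in globular embryos. It then gave 12302 and 10762 in heart, 70344 and 81171 in torpedo, 41201 and 26041 in bent and 11.0 and 1067 in mature embryos. Its torpedo values were the highest of any of the 36 genes, also per kilobase of transcript (37597 ± 3799.5, followed by ACP1 at 33641 ± 9226), and every later stage up to torpedo lay at or above the one before in mean. The rise from zygote to octant passed the test (log2 change 3.53, SE 1.20, adjusted p = 0.0204) and was lost without zygote replicate 1, octant replicate 1 or octant replicate 2 (adjusted p = 0.13, 0.0692 and 0.0921, in that order, and 7.95e-06 to 0.13 over the alternatives). The step from heart to torpedo did not pass (log2 change 2.71, SE 1.20, adjusted p = 0.112), but did so in the fit without the mature stage (adjusted p = 2.65e-04).

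All 4 genes of this step rose from zygote to octant. FAB1 rose there (log2 change 3.14, SE 0.64, adjusted p = 7.93e-04) under every alternative, from 126 and 174 to 1226 and 1450.4. EMB3147 went from 289.9 and 239 at zygote to 951 and 1453 at octant and 9413 and 9304 at torpedo. KAS III was the only one of the 4 called from heart to torpedo (log2 change 2.14, SE 0.64, adjusted p = 0.0236), from 2046 and 1345 to 6802 and 7867, and lost that call without heart replicate 1, heart replicate 2, torpedo replicate 1 or torpedo replicate 2 (adjusted p = 0.0611, 0.146, 0.0855 and 0.116, in that order, and 7.73e-04 to 0.146 over the alternatives). In the fit without the mature stage all 4 rose from heart to torpedo, with adjusted p of 0.00593 for EMB3147, 8.30e-04 for KAS III, 2.65e-04 for KASI and 0.00234 for FAB1. The octant call of KAS III (adjusted p = 0.0449) was lost in 17 of 27 alternatives, among them each library of the zygote, octant, globular, heart and torpedo stages left out (adjusted p from 0.0516 without globular replicate 2 to 0.212 without zygote replicate 2, with 0.00199 to 0.674 over the alternatives).

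The rest of the cycle uses a ketoacyl reductase, hydroxyacyl dehydratases and an enoyl reductase. AT1G24360, annotated with 3-oxoacyl-ACP reductase activity, gave 5993 and 6957 in zygote, 15851 and 20454 in octant and 13764 and 10464 in globular embryos. It then gave 42905 and 54066 in heart, 46745 and 32189 in torpedo, 18362 and 13564 in bent and 124 and 594 in mature embryos. It was the most abundant of the 36 genes per kilobase at octant (12801 ± 2295) and heart (34193 ± 5566) and the only one highest at heart, though its heart and torpedo libraries overlapped (log2 change -0.31, SE 0.56, adjusted p = 0.731). MOD1, the enoyl reductase, gave 1253 and 1010.0 in zygote, 741 and 705 in octant and 1119 and 2358 in globular embryos. It then gave 14836 and 9603 in heart, 22074 and 24608 in torpedo, 15301 and 10424 in bent and 7.82 and 357 in mature embryos. Its heart libraries were more than 4-fold above both globular libraries, and it rose there (log2 change 2.87, SE 0.99, adjusted p = 0.0356). That call was lost in 15 of the 27 alternatives, including each library of the zygote, octant, globular and heart stages left out in turn (adjusted p from 0.0504 without zygote replicate 1 to 0.179 without globular replicate 1), with 1.19e-04 to 0.179 over the alternatives.

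The dehydratases remove water from the hydroxyacyl chain. AT5G10160 gave 976 and 1373 in zygote, 1702 and 1187 in octant and 2261 and 2333 in globular embryos. It then gave 2798 and 4980.3 in heart, 12221 and 10181 in torpedo, 5721 and 3861 in bent and 76.7 and 229.9 in mature embryos. Both torpedo libraries lay above all others, as they did in the other dehydratase gene. AT2G22230 gave 1365 and 1271 in zygote, 2256 and 1196 in octant and 1770.3 and 1669.7 in globular embryos. It then gave 2647 and 4179.6 in heart, 6566 and 6869 in torpedo, 3756 and 2789 in bent and 50.1 and 112 in mature embryos. Between zygote and globular neither passed the test at any step, and of the pair AT5G10160 alone was called from heart to torpedo (log2 change 1.58, SE 0.47, adjusted p = 0.023), a call lost without heart replicate 1, torpedo replicate 1 or torpedo replicate 2 (adjusted p = 0.19, 0.124 and 0.074, in that order, and 0.00645 to 0.19 over the alternatives). The same step of AT2G22230 had a log2 change of 1.01 (adjusted p = 0.0897). Of the dehydratase level per kilobase, AT5G10160 made up 43.6% and 53.9% at zygote and 66.8% and 61.6% at torpedo.

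Of the desaturases that place the first double bond in stearoyl-ACP, AT3G02630 was the larger in level. AT3G02630 gave 119 and 102 in zygote, 718 and 1011 in octant and 730.5 and 710.1 in globular embryos. It then gave 1803 and 1912 in heart, 9485 and 11925 in torpedo, 11789 and 7814 in bent and 7.82 and 134 in mature embryos. Torpedo and bent libraries overlapped and lay above all others, after rises to octant (log2 change 2.91, SE 0.73, adjusted p = 0.00347) and to torpedo (log2 change 2.52, SE 0.73, adjusted p = 0.0208). AT5G16240 gave 38.8 and 69.3 in zygote, 289 and 342 in octant and 19.7 and 22.9 in globular embryos. It then gave 119 and 154 in heart, 3103 and 4775 in torpedo, 5581 and 5697 in bent and 9.39 and 69.5 in mature embryos. Up to bent it was lowest at globular and highest at bent, with a rise to octant (log2 change 2.51, SE 0.59, adjusted p = 0.00222), a fall to globular (log2 change -3.66, SE 0.59, adjusted p = 2.28e-04) and a rise to torpedo (log2 change 4.79, SE 0.59, adjusted p = 6.90e-05) that held under every alternative, and it alone of the 36 genes had both bent libraries above both torpedo libraries apart from GPT1. From globular to bent it rose more than any other of the 36 genes (log2 change 7.80, SE 0.59, adjusted p = 8.80e-08). The globular values of AT5G16240 rested on 6 and 18 reads. The rise of AT3G02630 to torpedo was lost without heart replicate 1, heart replicate 2, torpedo replicate 1 or torpedo replicate 2 (adjusted p = 0.0974, 0.0861, 0.0749 and 0.112, in that order, and 1.05e-04 to 0.112 over the alternatives).

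Thioesterases end synthesis by freeing the chain from its carrier, those of the FATA type acting mainly on oleoyl-ACP and FATB mainly on saturated chains. FaTA gave 75.6 and 98.8 in zygote, 217 and 268 in octant and 339 and 251 in globular embryos. It then gave 629.6 and 657 in heart, 4238 and 3074 in torpedo, 3835 and 1906 in bent and 7.82 and 52.8 in mature embryos. It rose from heart to torpedo (log2 change 2.48, SE 0.57, adjusted p = 0.00567), a call lost without torpedo replicate 1 (adjusted p = 0.056, and 7.40e-05 to 0.056 over the alternatives). AT4G13050, annotated as another acyl-ACP thioesterase, reached 3214 and 4785 at torpedo from 92.1 and 79.6 at zygote and was at 0 and 81.2 at the mature stage. FATB gave 305 and 724 in zygote, 388 and 322 in octant and 418 and 612 in globular embryos. It then gave 625 and 738 in heart, 1719 and 1932 in torpedo, 2265 and 1603 in bent and 288 and 337 in mature embryos. Its mean was highest at bent, and its mature libraries overlapped those of octant. It made up 57.9% and 75.3% of the 3 thioesterase genes per kilobase at zygote, 14.8% and 15.7% at torpedo and 96.5% and 65.5% at the mature stage. In mature replicate 1 that share rested on 184 reads of FATB, 5 of FaTA and 0 of AT4G13050.

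Export was represented by AT3G57280, annotated as a chloroplast envelope protein of the transmembrane 14C family, and LACS9, a long-chain acyl-CoA synthetase of the plastid envelope. AT3G57280 gave 1472 and 914 in zygote, 2138 and 1491 in octant and 1556 and 1464 in globular embryos. It then gave 821 and 1242 in heart, 663 and 664 in torpedo, 324 and 378 in bent and 183 and 507 in mature embryos. No consecutive step passed the test, but it fell from globular to bent (log2 change -2.10, SE 0.44, adjusted p = 0.00108) under every alternative, where 25 others rose. LACS9 gave 79.5 and 75.2 in zygote, 499 and 579 in octant and 434 and 594 in globular embryos. It then gave 1498 and 2231 in heart, 7501 and 8523 in torpedo, 3534 and 2451 in bent and 0 and 107 in mature embryos. Both torpedo libraries lay above all others, and its rise to octant (log2 change 2.74, SE 0.94, adjusted p = 0.0223) was lost in 9 of the 27 alternatives, among them those without zygote replicate 1, zygote replicate 2, octant replicate 1 or octant replicate 2 (adjusted p = 0.0825, 0.0854, 0.072 and 0.0979, in that order, and 1.85e-05 to 0.286 over the alternatives).

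In the mature embryo all genes but AT3G57280 lay below both of their bent libraries. ACP2 fell from 24715 and 15092 at bent to 4.69 and 542 (log2 change -8.13, SE 1.21, adjusted p = 3.99e-05), KASI from 41201 and 26041 to 11.0 and 1067 (log2 change -8.02, SE 1.20, adjusted p = 4.11e-05) and AT3G02630 from 11789 and 7814 to 7.82 and 134 (log2 change -7.89, SE 0.73, adjusted p = 5.39e-07). Both bent libraries lay above both mature libraries in each of them, though in mature replicate 1 ACP2, KASI and AT3G02630 rested on 3, 7 and 5 reads. In a fit of bent and mature alone 26 genes fell, and the calls of ACP2 (adjusted p = 0.0678, with 5.55e-09 to 0.0678 over the alternatives) and KASI (adjusted p = 0.0743, with 1.11e-09 to 0.0743) were lost. ACP4 (-2.01), PKp3 (-2.20), GPT1 (-2.43) and FATB (-2.60) had the smallest log2 falls among the 35, and GPT1 had the highest mean of the 36 genes in the mature embryo.

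Other genes tied to the pathway were listed by function, 38 loci of which 37 were in the table. They comprised regulators of acetyl-CoA carboxylase, lipoate attachment, other desaturases, mitochondrial acyl carrier proteins, plastid sugar import and upper glycolysis, other export genes and WRI1. From heart to torpedo 22 of the 37 rose and none fell, against 16.3% and 9.17% of all genes tested. From bent to mature 25 fell and 7 rose, against 40.1% and 18.2%. Over the earlier steps 20 rose and 2 fell from zygote to octant, against 44.7% and 13.1%, and 6 rose and 9 fell from octant to globular, against 7.02% and 31.5%. From globular to heart 7 rose and 3 fell, against 27.7% and 6.9%, and from torpedo to bent 9 fell and none rose, against 22% and 5.46% of all genes tested. The heart to torpedo rises took in 7 of 8 carboxylase regulators and 10 of 14 genes of sugar import and upper glycolysis.

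Other plastid sugar phosphate translocators were on that list. GPT2 (AT1G61800), the homologue of GPT1, gave 33.0 and 28.0 in zygote, 173 and 153 in octant and 9.87 and 22.9 in globular embryos. It then gave 21.1 and 21.0 in heart, 748 and 804 in torpedo, 375 and 1574 in bent and 3.13 and 20.5 in mature embryos. It fell from octant to globular (log2 change -3.11, SE 0.66, adjusted p = 0.00183) and rose from heart to torpedo (log2 change 4.96, SE 0.66, adjusted p = 1.10e-04), both under every alternative. APE2 (AT5G46110), the triose phosphate translocator of photosynthetic plastids, gave 914 and 472 in zygote, 251 and 275 in octant and 88.8 and 121 in globular embryos. It then gave 2891 and 1122 in heart, 16272 and 12784 in torpedo, 17851 and 14114 in bent and 1.56 and 170.2 in mature embryos. From globular to heart it rose (log2 change 4.07, SE 1.01, adjusted p = 0.00687), a call lost without heart replicate 1 (adjusted p = 0.0754, and 1.71e-05 to 0.0754 over the alternatives). Its torpedo and bent libraries all lay above every earlier one.

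WRI1 (AT3G54320), singled out after its values were seen because it is the known activator of the pathway, gave 40.7 and 50.1 in zygote, 294 and 203 in octant and 428 and 498 in globular embryos. It then gave 1203 and 1620.4 in heart, 5205 and 7216 in torpedo, 5124 and 2125 in bent and 1.56 and 97.8 in mature embryos. Its mean was highest at torpedo and its zygote libraries lay below all others except mature replicate 1. WRI1 rose from zygote to octant (log2 change 2.33, SE 0.88, adjusted p = 0.0329), a call lost without zygote replicate 1, zygote replicate 2, octant replicate 1 or octant replicate 2 (adjusted p = 0.132, 0.0876, 0.147 and 0.0773, in that order, and 2.63e-04 to 0.225 over the alternatives). It rose from globular to bent (log2 change 2.83, SE 0.88, adjusted p = 0.0138), a call lost without globular replicate 1 or bent replicate 1 (adjusted p = 0.0614 and 0.115, in that order, and 4.93e-05 to 0.115 over the alternatives). The step from heart to torpedo did not pass the test (log2 change 2.13, SE 0.88, adjusted p = 0.0879). Like 35 of the 36 genes it was higher in mature replicate 2 than in mature replicate 1.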

How the data were processed

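Gene levels were measured in 14 libraries of whole Col-0 embryos, 2 at each of 7 stages. Per the labels' protocols, total RNA was extracted with a micro-scale kit, its messenger RNA was amplified as antisense RNA, and the sequencing libraries carried no strand information. Reads were handled with STAR, HTSeq, Trimmomatic, FastQC, CASAVA and DESeq2 on build TAIR10, per the submitters' processing notes, and the sources used here give neither the versions nor what each tool was used for. The deposited signal is the reads per gene, scaled by the authors so that each column sums to 20000000. Every value came out as a whole number of reads within 0.001 reads, which gave the depth of 6078186 to 30803336 reads. Entries without an identifier (103, with 9.15% to 26.3% of reads) were left out of tests.

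Genes with a value of at least 10 in at least 2 libraries were tested (18744, with 6670 not tested) by limma 3.58.1 in R 4.3.3 with an intensity trend on log2(value + 4), with stage as the term and all 14 libraries sharing 1 estimate of spread (7 residual and 7.81 prior degrees of freedom). Fold changes on this scale understate the change of low genes. The p-values were adjusted by the Benjamini-Hochberg method over all genes tested, with a threshold of 0.05. They weigh a stage difference against the moderated spread between replicate libraries of all 7 stages, and not against that of the compared stages alone. An exact permutation test of 2 against 2 libraries cannot give a p below 0.333, so none was used. The alternatives were pseudocounts of 1 and 16, a filter at 50 and none, scaling to upper quartiles, to medians or to equal named-gene totals, edgeR 4.0.16 and DESeq2 1.42.0 on the recovered reads, a block for replicate number, array weights, the compared stages alone and each library left out. The members and lists were chosen with earlier results of these data known. Genes were named by a rule, the highest-level gene per kilobase of each step, every acyl carrier protein, genes whose highest stage differs from that of this gene, and up to 3 rises and 3 falls of each comparison by size, with libraries that do not overlap and a mean of 50 or more. Other genes given with statistics were chosen after their values were seen. Intervals and floors cover counting error only. Gene names and promoter sequences came from RefSeq TAIR10.1, to which 24932 of the 25414 named genes matched.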

Additional observations from a re-analysis of the deposited data

How the results depend on the processing

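Leaving out single libraries gave 11 to 26 of the 36 genes past the test from zygote to octant, 2 to 8 from octant to globular, 4 to 23 from globular to heart, 7 to 29 from heart to torpedo, 1 to 14 from torpedo to bent, 34 to 35 from bent to mature, 18 to 31 from globular to bent, 17 to 27 from zygote to mature and 36 over all stages. From torpedo to bent, where 2 genes fell, 1 did so with a pseudocount of 1, no filter, upper-quartile scaling, median-centring, equal named-gene totals or edgeR, 5 with a pseudocount of 16 and 0 with limma in a fit of both stages alone. Such a fit has 2 residual degrees of freedom and also gave 2 calls from globular to heart, 2 from octant to globular and 13 from zygote to mature. From globular to heart there were 7 calls with no filter, 4 with upper-quartile scaling or edgeR and 5 after median-centring. From octant to globular there were 8 with upper-quartile scaling, median-centring or DESeq2, and median-centring gave 14 from zygote to octant. The fit of 6 stages, chosen after seeing the data, gave 8 calls from octant to globular, 23 from globular to heart, 29 from heart to torpedo and 14 from torpedo to bent. The change of CAC1 from zygote to mature turned to 0.056 in log2 without mature replicate 1 (adjusted p = 0.945), with a range from -4.66 without mature replicate 2, and that of AT1G79530 from bent to mature turned to 0.34 after median-centring. The cause of these changes was not tested.

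The replicate numbers were not taken to pair the libraries, since not every pair of stages had deviations correlated over 0.1. Of 21 pairs 3 did, those among globular, torpedo and bent (0.299, 0.162 and 0.103), and the range was -0.111 to 0.299. With a replicate block 1 gene fell from torpedo to bent, and no other count of the 36 genes moved by more than 1.5 times.

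Over all genes, 5149 changed from torpedo to bent, against 3327 with upper-quartile scaling, 3202 with edgeR and 0 in a fit of those stages alone, and that fit gave 3794 of 7210 calls from octant to globular, 897 of 6476 from globular to heart and 5221 of 9793 from globular to bent. Single libraries left out lowered these counts to 4207 (octant replicate 2) from octant to globular, to 3855 and 4317 (heart replicates 1 and 2) from globular to heart, and to 2577, 3312 and 2461 (torpedo replicates 1 and 2, bent replicate 2) from torpedo to bent. From heart to torpedo 4765 genes changed, and 2679, 2843, 2486 and 2542 without heart replicates 1 and 2 and torpedo replicates 1 and 2. Of the 139 calls on the 36 genes over the 8 comparisons, 72 held under every alternative run. Depth limits the values of ACP5, which had no read in either octant library, and of AT4G13050 and LACS9, each at 0 in a mature library. It also limits other genes in mature replicate 1, where CAC1 and ENO1 rested on 1 read each, ACP2 on 3, AT3G02630 on 5 and KASI on 7.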

Other observations

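Genes beside the plastid pathway did not all follow its course. AT5G47630, a mitochondrial acyl carrier protein that serves lipoate synthesis and respiratory complexes, gave 567 and 539.7 in zygote, 972 and 739 in octant and 1013 and 1049.9 in globular embryos. It then gave 551 and 901 in heart, 482 and 306 in torpedo, 125 and 79.5 in bent and 109.5 and 92.0 in mature embryos. Its bent and mature libraries lay below all others, and it fell from globular to bent (log2 change -3.32, SE 0.38, adjusted p = 5.29e-06) under every alternative, where 25 of the 36 plastid genes rose. None of the 3 mitochondrial acyl carrier protein genes was called from heart to torpedo.

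AT3G43520, annotated with the same transmembrane 14C family as AT3G57280, gave 3169 and 1898 in zygote, 8536 and 7540.1 in octant and 8815 and 3659 in globular embryos. It then gave 3323 and 2205 in heart, 3401 and 1967 in torpedo, 1681 and 560.1 in bent and 20604 and 13658 in mature embryos. It was high at octant and in globular replicate 1, and again in the mature embryo. It rose from bent to mature (log2 change 4.11, SE 0.54, adjusted p = 1.33e-05) under every alternative, where 35 of the 36 genes fell.

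AT3G02620, a desaturase-family gene next to AT3G02630, gave 454 and 719.6 in zygote, 540.1 and 444 in octant and 816 and 318 in globular embryos. It then gave 93.6 and 26.0 in heart, 68.9 and 44.2 in torpedo, 79.8 and 41.4 in bent and 743 and 416 in mature embryos. It fell from globular to heart (log2 change -3.25, SE 0.59, adjusted p = 0.00102) and rose from bent to mature (log2 change 3.18, SE 0.59, adjusted p = 2.80e-04), of which the first was lost in a fit of those stages alone (adjusted p = 0.0963, with 3.46e-09 to 0.0963 over the alternatives). FTM1 (AT1G43800), another desaturase-family gene, gave 64.0 and 102 in zygote, 67.3 and 47.3 in octant and 253 and 771 in globular embryos. It then gave 912 and 1083 in heart, 11709 and 12147 in torpedo, 7461 and 13601 in bent and 4.69 and 125 in mature embryos. It rose from heart to torpedo (log2 change 3.58, SE 0.86, adjusted p = 0.00741), a call lost without heart replicate 1 (adjusted p = 0.0535, and 1.04e-04 to 0.0535 over the alternatives), and fell from bent to mature (log2 change -8.23, SE 0.86, adjusted p = 1.47e-06).

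AT5G08415, a plastid lipoyl synthase that makes the cofactor of the pyruvate dehydrogenase E2 part, gave 12.6 and 29.5 in zygote, 661 and 626 in octant and 247 and 176 in globular embryos. It then gave 373 and 392.3 in heart, 2283 and 1873 in torpedo, 1400.1 and 887 in bent and 9.39 and 47.0 in mature embryos. It rose from zygote to octant (log2 change 4.78, SE 0.54, adjusted p = 8.90e-06) under every alternative.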
